A study of Saccharomyces cerevisiae with 14 samples.

Results

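The comparison described here was made late in a wine fermentation, after 85% of the total glucose had been consumed, between the industrial wine yeast M2 and its derivative M2 nsf1∆. The members were the samples whose titles gave this stage, 3 arrays of M2 and 3 arrays of M2 nsf1∆, 6 of the 14 arrays of the series. M2 is a Saccharomyces cerevisiae MATa/α diploid, and in M2 nsf1∆ both copies of NSF1 (USV1, YPL230W) were replaced by the kanMX4 marker, which the M2 controls do not carry. Both strains were grown in YPD and then fermented filtered Riesling must at 18 °C without shaking and with no further treatment. The remaining 8 arrays, 2 of each strain at 24 h and 2 of each strain at 20% of glucose fermented, were used as earlier stages of the same comparison and for the estimate of the spread. The labels call the arrays biological replicates, but the methods describe fermentations in duplicate and nothing ties each of the 3 arrays to a bottle of its own. The p-values therefore measure the spread between these samples, which may in part be technical.

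Nsf1p is a zinc finger transcription factor, and the sequence reported for its binding is CCCCT, the stress response element that the general stress factors Msn2p and Msn4p also bind. Towards the end of a must fermentation yeast has little assimilable nitrogen left and has stopped dividing, while ethanol is high and oxygen is nearly absent. At the stage compared here part of the glucose was still left to ferment. The paper describes the making of ribosomal proteins as known to decline late in fermentation. Whether the cells depended on stored carbohydrate, the wall or membrane pumps was not tested. The question addressed was which transcripts differ at this point when Nsf1p is missing, and the account below is mostly of processes other than sulfate assimilation.

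RNA was hybridised to Affymetrix Yeast Genome 2.0 arrays, and the levels below are log2 intensities after RMA, so a difference of 1.0 is a 2-fold difference. Of the 10928 probe sets, 5498 belonged to 1 S. cerevisiae gene, covering 5449 genes. Array medians over these probe sets ran from 8.87 to 8.96. The 1746 probe sets of the other yeast species on the chip gave the background, with a median of 3.06 and a 95th percentile of 3.62. At 85%, pairs of arrays of the same strain correlated at 0.985 to 0.994 and pairs of different strains at 0.975 to 0.988.

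The deleted gene was checked first. NSF1 was at 13.12, 12.90 and 13.19 in the 3 M2 arrays and at 3.63, 3.95 and 5.90 in the 3 nsf1∆ arrays. The groups were far apart, but nsf1∆ array 3 stood clearly above the background, for which no cause was tested. The log2 difference was -8.58 (SE 0.45, limma adjusted p = 3.09e-07), and without nsf1∆ array 3 it was -9.28. In M2 the mean level of NSF1 was 9.01 at 24 h, 10.34 at 20% and 13.07 ± 0.15 (SD, n = 3) at 85%. The genes on either side of NSF1 were read beside it. FAS2, the α subunit of fatty acid synthase, was at 11.45, 11.38 and 11.67 in M2 and at 11.04, 11.00 and 10.95 in nsf1∆, a fall of 0.51 (SE 0.11, adjusted p = 0.0176) with no overlap. YPL229W, an uncharacterised gene, differed by -0.50 (SE 0.15, adjusted p = 0.06) and did not pass, although its groups did not overlap, at 9.06, 8.83 and 9.51 against 8.56, 8.62 and 8.73. At 24 h the differences of FAS2 and YPL229W were 0.15 and 0.08, and neither passed.

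Over all S. cerevisiae probe sets, 272 (4.95%) were higher and 214 (3.89%) lower in nsf1∆ at 85%, together 486 (8.84%), at an adjusted p under 0.05. In 478 of these (8.69%) the 3 arrays of one strain did not overlap with the 3 of the other. The differences were small, with a median size of 0.586 on the log2 scale among the probe sets that passed, and 30 of the higher (0.546%) and 11 of the lower ones (0.2%) reached 2-fold. Over all probe sets, 25.8% had an unadjusted p under 0.05. Counted by genes, 268 (4.92%) were higher and 213 (3.91%) lower, the median difference over all 5449 genes was -0.01, and 49.0% of genes were above and 51.0% below 0. The arrays of the strains did not overlap in 15.1% of genes that were higher and 14.5% that were lower in nsf1∆. At 24 h, 4 probe sets were higher (0.0728%) and 3 lower (0.0546%, 0.127% together), and at 20%, 10 were higher (0.182%) and 9 lower (0.164%, 0.346% together), with 2 arrays per strain. The counts at 85% depended on single arrays. Without M2 array 2, for example, 100 probe sets were higher and 88 lower, without M2 array 1, 136 and 94, without nsf1∆ array 1, 179 and 149, and without nsf1∆ array 2, 166 and 88. Without M2 array 3 they were 186 and 100.

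**Figure D1:**
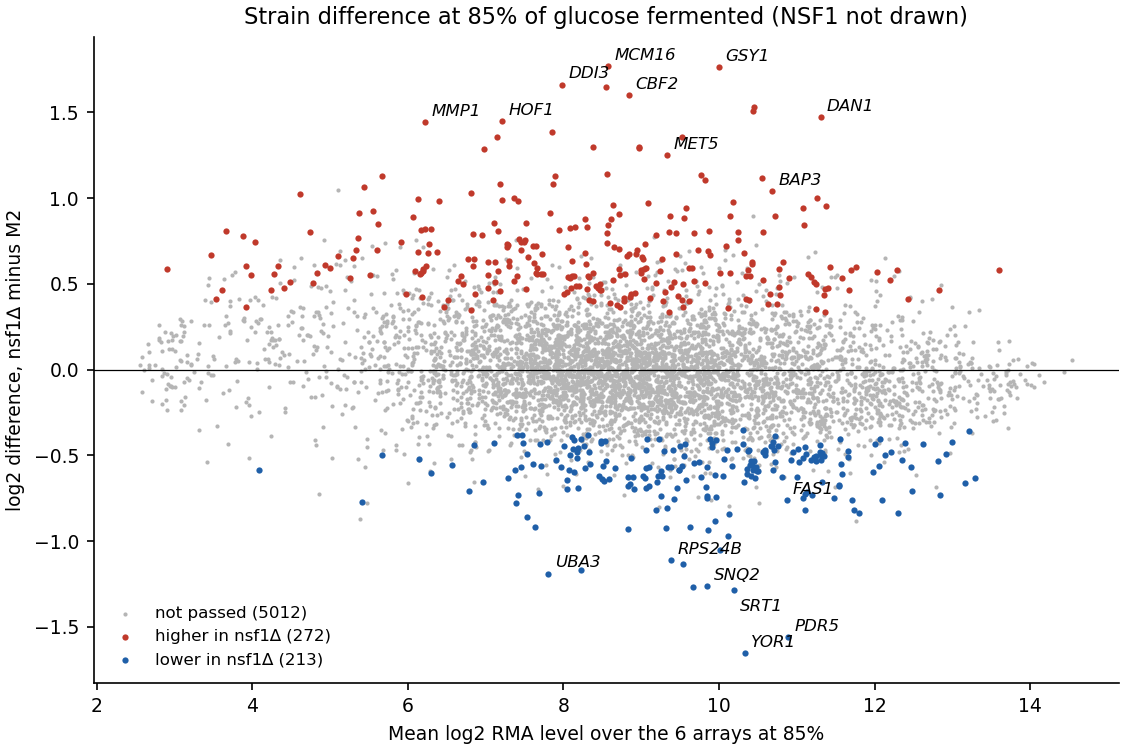
Each point is a probe set, with its mean log2 RMA level over the 6 arrays at 85% on the x axis and the log2 difference nsf1∆ minus M2 on the y axis. The 272 higher probe sets (red) and the 213 lower ones besides NSF1 (blue) are spread over the whole range of levels, and NSF1, at -8.58, is outside the axis and not drawn.

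After NSF1 itself, the 2 largest falls were those of the membrane pumps YOR1 and PDR5, and other pumps fell less. YOR1, an ATP-driven plasma membrane pump for organic anions, was at 11.03, 10.92 and 11.52 in M2 and at 9.28, 9.46 and 9.77 in nsf1∆. PDR5, the main multidrug pump of yeast, was at 11.65, 11.34 and 12.01 in M2 and at 9.49, 10.36 and 10.47 in nsf1∆. In both genes every mutant array was below every M2 array. YOR1 fell by 1.65 (SE 0.19, adjusted p = 0.000561), which is 3.15-fold, and PDR5 fell by 1.56 (SE 0.23, adjusted p = 0.00306), which is 2.95-fold. SNQ2, a pump for a further range of toxic compounds, was at 10.51, 10.05 and 10.90 in M2 and at 9.01, 9.18 and 9.48 in nsf1∆, 2.4-fold lower (adjusted p = 0.00367). PDR12, which exports weak organic acids such as sorbate, was at 10.27, 9.85 and 10.87 in M2 and at 9.06, 9.41 and 9.72 in nsf1∆. Its groups did not overlap, though the lowest M2 array lay only slightly above the highest mutant array, and it fell by 0.93 (SE 0.22, adjusted p = 0.0242). TPO4, a polyamine exporter, fell by 0.83 (SE 0.21, adjusted p = 0.0321), from 12.14, 11.87 and 12.61 to 10.93, 11.33 and 11.88, where the highest mutant array just exceeded the lowest M2 array. PDR12 and TPO4 each lost the call without M2 array 1 or 3 or nsf1∆ array 1 or 2.

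Of 28 drug efflux genes measured, 8 fell (28.6%) and 0 rose at an adjusted p under 0.05 by limma, beside 3.91% lower and 4.92% higher among all genes. At an unadjusted p under 0.05, 8 were lower and 0 higher, and by the methods' t-test at the same unadjusted threshold 6 and 0. The median over the list was -0.15. The passing members outside the naming rule, named after their values were seen, were PDR16, a phosphatidylinositol transfer protein, PDR10, a further ATP-driven transporter, and PDR3, which with PDR1 encodes the activators of these pumps. They differed by -0.73, -0.65 and -0.55. PDR1 itself was at 9.27, 8.88 and 9.41 in M2 and at 8.90, 9.24 and 9.09 in nsf1∆, a difference of -0.11 (SE 0.14, adjusted p = 0.675) between groups that overlap. TPO1, another polyamine exporter, also overlapped, at 12.97, 12.59 and 13.02 against 12.02, 12.75 and 12.90 (difference -0.31, adjusted p = 0.421). The count of falling efflux genes was 5 without M2 array 3 and 5 without nsf1∆ array 2.

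A list of 18 measured genes known to be activated by Pdr1p and Pdr3p was added after these values were seen, and is not independent of them. In it 0 rose by limma at an adjusted or an unadjusted p under 0.05, and 0 by the methods' t-test. The list had 9 falls (50%, beside 3.91% of all genes) and 17 members below 0, with a median of -0.45. Besides transporters it holds YLL056C and CIS1. YLL056C, of unknown function, was at 10.30, 10.21 and 10.39 in M2 and at 8.69, 9.14 and 9.26 in nsf1∆, 2.41-fold lower (adjusted p = 0.000561). CIS1 was at 8.80, 8.78 and 8.84 in M2 and at 6.97, 7.89 and 8.06 in nsf1∆, 2.25-fold lower (adjusted p = 0.0101), with mutant array 1 the lowest. RSB1, a sphingoid base translocase, and IPT1, which makes the main inositol sphingolipid, did not pass. Their differences were -0.34 (SE 0.21, adjusted p = 0.331) and -0.33 (SE 0.14, adjusted p = 0.159). The count in this list stayed between 8 and 10 when any 1 of the 14 arrays was left out.

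**Figure D2:**
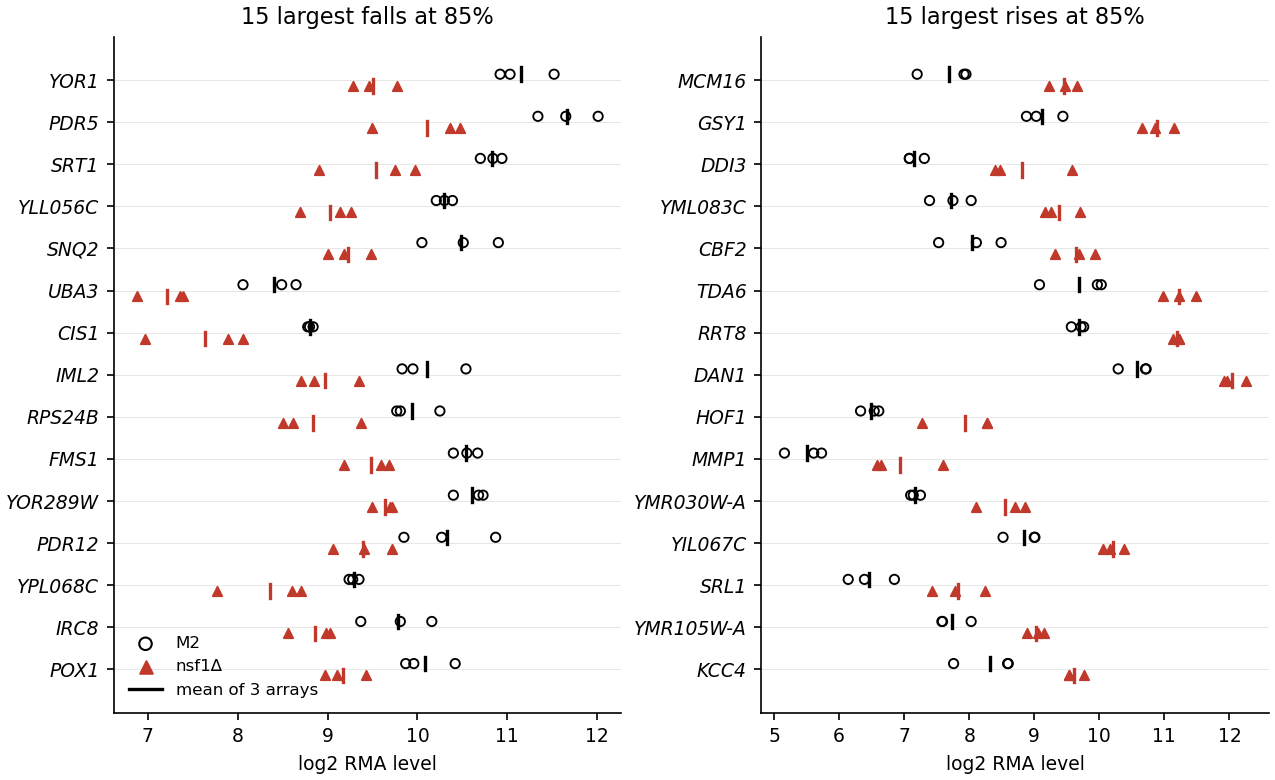
Log2 RMA levels of the 15 genes with the largest falls (left) and the 15 with the largest rises (right) on each array at 85%, open circles for M2 and red triangles for nsf1∆, with a bar at the mean of 3 arrays. The 30 genes were chosen among those whose strains do not overlap, and in most of the falls nsf1∆ array 1 is the lowest of the mutant arrays, as in CIS1 (6.97 against 7.89 and 8.06).

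The other genes among the 15 largest falls belong to several processes. SRT1, a cis-prenyltransferase that makes long dolichols, was at 10.94, 10.70 and 10.84 in M2 and at 8.91, 9.75 and 9.97 in nsf1∆, 2.43-fold lower (adjusted p = 0.0034). FMS1, the polyamine oxidase that supplies β-alanine for pantothenate, was at 10.55, 10.40 and 10.67 against 9.18, 9.60 and 9.68, 2.08-fold lower (adjusted p = 0.00331). UBA3, part of the enzyme that activates the ubiquitin-like Rub1p, was at 8.49, 8.06 and 8.65 against 6.88, 7.39 and 7.36, 2.28-fold lower (adjusted p = 0.00183). In each of these genes the strains were well separated, and the mutant arrays varied more than the M2 arrays in SRT1. IML2, a protein of inclusion body clearance, fell by 1.14 (SE 0.19), and IRC8, a gene of poorly known function, by 0.92 (SE 0.18). YOR289W and YPL068C, both uncharacterised, fell by 0.97 and 0.93. UBA3 is the neighbour of ROX1 (described below) on chromosome XVI, and both fell.

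Several genes of the respiratory chain fell in the mutant. CYC1, cytochrome c isoform 1, was at 12.67, 12.89 and 12.95 in M2 and at 12.48, 11.81 and 12.11 in nsf1∆, a fall of 0.71 (SE 0.16, adjusted p = 0.0173). RIP1, the iron-sulfur subunit of the cytochrome bc1 complex, was at 12.30, 12.25 and 12.29 in M2 and at 11.93, 11.59 and 11.53 in nsf1∆, a fall of 0.60 (SE 0.14, adjusted p = 0.0229). COX8, COX6 and COX4, subunits of cytochrome c oxidase, fell by 0.57 (SE 0.14), 0.56 (SE 0.12) and 0.52 (SE 0.11). None of these 5 genes overlapped between the strains, and in CYC1 and RIP1 the mutant array nearest to M2 was array 1. Of 23 genes of the chain measured, 6 fell (26.1%, beside 3.91% of all genes) and 0 rose, 0 also at an unadjusted p under 0.05 and by the methods' t-test. The median was -0.25 and 21 were below 0. At 24 h the median of the same 23 genes was 0.28, and at 20% it was -0.33, with none passing at either stage. Their mean level was 11.72 on both M2 arrays at 24 h, and 11.86 and 12.20 on nsf1∆ arrays 1 and 2. The count at 85% fell to 4 without M2 array 1, 0 without M2 array 2, 2 without M2 array 3, 1 without nsf1∆ array 2 and 4 without nsf1∆ array 3, and it was 1 with the 6 arrays at 85% fitted alone.

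The subunits of the mitochondrial ATP synthase, the next complex of the pathway, passed in 0 of 22 cases by limma, with a median of -0.17 and 21 of 22 below 0. At an unadjusted p under 0.05, 4 were lower and 0 higher, and by the methods' t-test 2 and 0. The mitochondrial ribosome, which translates the few proteins encoded in the organelle, was represented by 70 genes, of which 8 fell (11.4%, beside 3.91% of all genes) and 0 rose, with 0 higher at an unadjusted p under 0.05 and by the methods' t-test. The median was -0.18 and 57 were below 0. RSM19, of its small subunit, was at 10.69, 10.76 and 10.91 in M2 and at 9.82, 10.36 and 10.41 in nsf1∆, a fall of 0.59 (SE 0.15, adjusted p = 0.0312). MRPL17, IMG2, MRPL50 and MRPS8, all ribosomal subunits, fell by 0.54, 0.53, 0.48 and 0.46. Leaving out single arrays of the 85% stage took the 8 to 2, 0 and 3 for M2 arrays 1, 2 and 3, and to 3, 3 and 8 for nsf1∆ arrays 1, 2 and 3. Without either M2 array at 24 h, or either nsf1∆ array at 20%, it was 4. It was 0 with the 6 arrays at 85% fitted alone, 4 with all probe sets tested, 5 after quantile normalization and 14 with array weights. In the TCA cycle, which feeds the chain, CIT1, citrate synthase, rose and KGD1, of the 2-oxoglutarate dehydrogenase, fell. CIT1 was at 12.60, 12.46 and 12.72 against 12.96, 13.04 and 13.17 (difference 0.46, adjusted p = 0.0344) and KGD1 at 9.97, 10.02 and 10.24 against 9.20, 9.45 and 9.69 (difference -0.63, adjusted p = 0.0402). Of the 16 genes of the cycle no other passed, so 1 rose (6.25%, near the 4.92% of all genes) and 1 fell (6.25%, beside 3.91%). The median of the cycle was 0.01. CIT1 lost its call without M2 array 1 or 2, nsf1∆ array 2 or 3 or either nsf1∆ array at 20%, and KGD1 lost its call without any array of the 85% stage except nsf1∆ array 3, and without either M2 array at 24 h or nsf1∆ array at 20%.

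Cytosolic ribosomal protein genes mostly lay below their M2 levels. Of 127 measured, 16 fell (12.6%, beside 3.91% of all genes) and 1 rose (0.787%), 119 were below 0, and the median was -0.25. In 60 the mutant arrays all lay below the M2 arrays, where 14.5% of all genes did, and in 1 they all lay above. RPS24B, of the small subunit, was at 9.77, 10.25 and 9.81 in M2 and at 9.37, 8.62 and 8.51 in nsf1∆, 2.16-fold lower (adjusted p = 0.00645). RPS29A was at 10.20, 10.48 and 10.33 against 9.78, 9.51 and 9.49, 1.67-fold lower (adjusted p = 0.00635). RPL8A, of the large subunit, was at 11.40, 11.72 and 11.33 against 11.30, 10.61 and 10.41, 1.64-fold lower (adjusted p = 0.0341), and its mutant array 1 lay just under the lowest M2 array. The lone rise was that of RPL16B, at 11.09, 11.20 and 11.19 in M2 and at 11.85, 11.50 and 11.56 in nsf1∆ (difference 0.48, adjusted p = 0.0248). RPL16B lost this call without any M2 array of the 85% stage or without nsf1∆ array 1. Many of these genes are near-identical pairs whose probe sets may share signal, so values of single copies are uncertain. The mean level over the list was 11.26, 11.46 and 11.39 on the M2 arrays and 11.18, 11.03 and 11.13 on the nsf1∆ arrays, which do not overlap. At 24 h it was 12.78 and 12.77 in M2 and 12.67 and 12.52 in nsf1∆. The median strain difference of the list was -0.16 at 24 h and -0.12 at 20%, with 0 members passing at either stage. In the tests between stages described below, 0 members passed. The count of 16 was 2 without M2 array 2, 8 without M2 array 3, 3 without nsf1∆ array 2 and 7 without nsf1∆ array 3. It was 1 with the 6 arrays at 85% fitted alone, 9 with all probe sets tested, 10 after a second quantile normalization, 25 with an intensity trend, 29 with array weights and 36 by the methods' t-test at an unadjusted p under 0.05.

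Ribosome biogenesis factors assemble the subunits in the nucleolus. Of 101 listed and measured, 3 fell (2.97%, beside 3.91% of all genes) and 0 rose by limma, while 5 were higher and 8 lower at an unadjusted p under 0.05, and 6 and 9 by the methods' t-test. The median was -0.10. NSA1, a biogenesis factor outside the list, rose by 0.75 (SE 0.10, adjusted p = 0.00112). DBP2, an RNA helicase, was at 11.46, 11.24 and 11.64 in M2 and at 10.37, 10.66 and 11.06 in nsf1∆ (difference -0.75, adjusted p = 0.0398). RRB1, a chaperone of a ribosomal protein, and RRP43, of the exosome, fell by 0.73 and 0.61. Without M2 array 2 or 3 or nsf1∆ array 1 none of the 3 passed, and 1 passed without M2 array 1, nsf1∆ array 2, either M2 array at 24 h or either nsf1∆ array at 20%. Among 52 translation factors and tRNA synthetases, 2 rose (3.85%, beside 4.92% of all genes). Of the 52, 0 fell, with 7 lower at an unadjusted p under 0.05 and 2 by the methods' t-test. TYS1, the tyrosyl-tRNA synthetase, rose by 0.55 (SE 0.14) and ANB1, the form of factor eIF5A made without oxygen, by 0.67 (SE 0.15). The count was 0 without M2 array 1 or 2, and 1 without M2 array 3, nsf1∆ array 2 or 3 or either M2 array at 24 h.

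**Figure D3:**
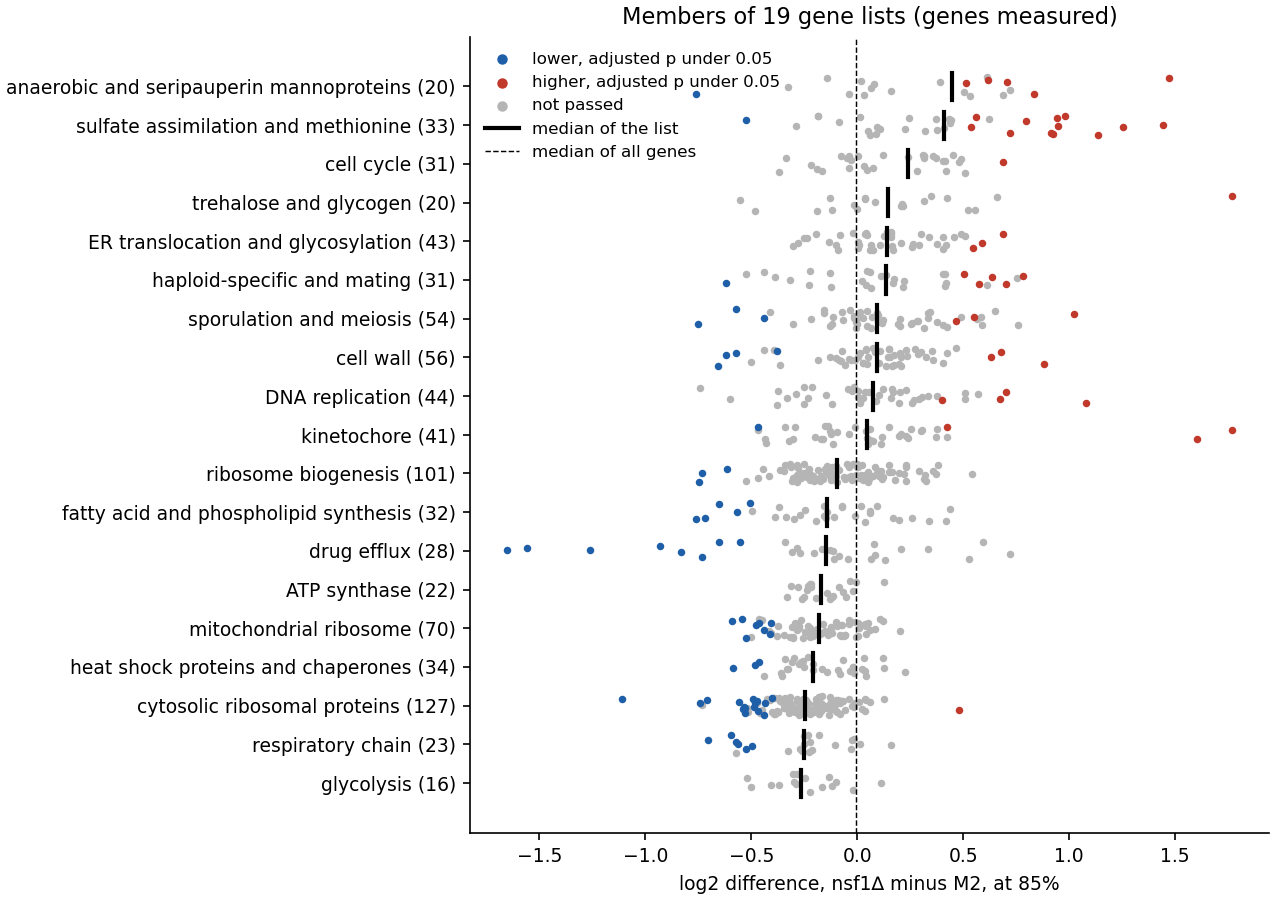
Log2 difference nsf1∆ minus M2 at 85% for each measured member of 19 gene lists, ordered by their medians (black bars), with members that passed in blue (lower) or red (higher). The medians run from -0.26 for glycolysis to 0.45 for the anaerobic mannoproteins, and the dashed line is the median of all 5449 genes, -0.01.

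No glycolytic gene passed, but nearly all lay slightly below their M2 levels. Of 16 genes, 15 were below 0, with a median of -0.26, the lowest of the lists plotted. Limma called 0 at the adjusted threshold, 7 were lower and 0 higher at an unadjusted p under 0.05, and the methods' t-test gave 6 lower and 1 higher. PGK1, phosphoglycerate kinase, was at 13.61, 13.60 and 13.70 in M2 and at 13.28, 13.39 and 13.50 in nsf1∆, a difference of -0.25 (SE 0.10, adjusted p = 0.127) with no overlap. TDH3, the main glyceraldehyde phosphate dehydrogenase, was at 11.73, 12.36 and 11.92 against 11.63, 11.86 and 11.85 (difference -0.22, adjusted p = 0.366), and these groups overlapped. ADH1 and PDC1, the main alcohol dehydrogenase and pyruvate decarboxylase of fermentation, did not pass, with differences of -0.08 (SE 0.09) and 0.17 (SE 0.10), while ADH5, a further alcohol dehydrogenase, fell by 0.63 (SE 0.12, adjusted p = 0.00892). HXT3, a glucose carrier of fermenting cells, was at 13.53, 13.22 and 13.55 against 13.28, 13.31 and 13.43, and of 17 hexose transport genes 0 passed, with 2 higher and 0 lower at an unadjusted p under 0.05 and the same by the methods' t-test.

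Storage carbohydrate genes were led by a single large rise. GSY1, a glycogen synthase, was at 9.03, 8.88 and 9.44 in M2 and at 10.65, 10.86 and 11.15 in nsf1∆. Every mutant array was above every M2 array, and the rise was 3.4-fold (log2 1.77, SE 0.22, adjusted p = 0.00111). In M2 the mean level of GSY1 was 11.77 at 24 h, 10.97 at 20% and 9.12 at 85%, while in nsf1∆ it was 11.56, 11.62 and 10.89. GSY2, the other glycogen synthase, was at 10.74, 10.47 and 11.21 against 11.55, 11.14 and 11.71 (difference 0.66, SE 0.21, adjusted p = 0.0667) with a small overlap, and did not pass. TPS1, which makes trehalose phosphate, differed by 0.35 (SE 0.14, adjusted p = 0.148). At an unadjusted p under 0.05, 5 of 20 trehalose and glycogen genes were higher and 1 lower, and by the methods' t-test 2 and 0. By limma's adjusted p, 1 rose (5.0%, beside 4.92% of all genes) and 0 fell, with a median of 0.14. The number that rose was 2 without M2 array 3, nsf1∆ array 2 or either nsf1∆ array at 24 h.

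Genes that make fatty acids and phospholipids fell at several steps. FAS1, the β subunit of fatty acid synthase, was at 11.09, 10.97 and 11.71 in M2 and at 10.48, 10.32 and 10.68 in nsf1∆, 1.7-fold lower (adjusted p = 0.0169), and FAS2 fell with it, as given above beside NSF1. CKI1, choline kinase, which opens the route from choline to phosphatidylcholine, was at 8.0, 7.93 and 8.21 against 7.38, 7.18 and 7.43, 1.64-fold lower (adjusted p = 0.00308). The strains did not overlap in either gene, and M2 array 3 was the highest for FAS1. ECT1, which acts in the parallel route from ethanolamine, was at 9.67, 9.82 and 9.49 against 9.11, 9.09 and 9.08 and fell by 0.57 (SE 0.11). SCS3, an endoplasmic reticulum protein of lipid metabolism, fell by 0.65 (SE 0.13, adjusted p = 0.0138). In all, 5 of 32 genes fell (15.6%, beside 3.91% of all genes) and 0 rose, with a median of -0.15. At an unadjusted p under 0.05, 9 were lower and 2 higher, and by the methods' t-test 6 and 0. The count of 5 was 4 to 6 without any 1 array. OLE1, the fatty acid desaturase, was at 13.75, 13.68 and 13.70 against 13.68, 13.76 and 13.79, a difference of 0.04 (SE 0.09).

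In the breakdown of fatty acids in peroxisomes, POX1, acyl-CoA oxidase, was at 9.96, 9.87 and 10.42 in M2 and at 9.11, 8.97 and 9.43 in nsf1∆, 1.89-fold lower (adjusted p = 0.0293). PEX21, a protein import factor, fell by 0.59 (SE 0.16, adjusted p = 0.0362). Of 43 peroxisomal genes these 2 fell (4.65%, near the 3.91% of all genes) and 0 rose, with 12 lower and 2 higher at an unadjusted p under 0.05, 5 and 0 by the methods' t-test, and a median of -0.04. The count was 0 without M2 array 2 or 3 or nsf1∆ array 2, 1 without M2 array 1, nsf1∆ array 1 or either M2 array at 24 h, and 4 without nsf1∆ array 3 or either nsf1∆ array at 24 h. EEB1, which makes the ethyl esters of medium-chain fatty acids that give wine fruity aromas, was at 12.69, 12.64 and 12.80 against 11.55, 12.02 and 12.07. It fell by 0.83 (SE 0.14, adjusted p = 0.00635) with well separated groups. Among 26 aroma genes, EEB1 and the reductase GRE2 were the 2 that fell (7.69%, beside 3.91% of all genes). Of the 26, 0 rose, with 2 higher at an unadjusted p under 0.05 and by the methods' t-test. The EEB1 call held without any 1 of the 6 arrays at 85%, and the count was 1 without any other than nsf1∆ array 3, where it was 3.

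In a list of 25 arginine and glutamate family genes, 3 fell (12.0%, beside 3.91% of all genes) and 1 rose (4.0%, beside 4.92%). The list median was -0.05. The 3 that fell act in the proline pathway, which yields glutamate from the most abundant amino acid of must. PUT4, the proline permease, was at 10.26, 10.20 and 10.70 in M2 and at 9.19, 9.48 and 9.84 in nsf1∆, 1.85-fold lower (adjusted p = 0.0343). PUT1, proline oxidase, was at 12.15, 11.92 and 12.19 against 11.97, 11.05 and 10.97, 1.69-fold lower (adjusted p = 0.0475). PUT2, the next mitochondrial enzyme, was at 10.20, 10.30 and 10.58 against 9.74, 9.39 and 10.10, 1.53-fold lower (adjusted p = 0.0375). In PUT1 mutant array 1 lay above the lowest M2 array, so the groups overlapped. At 20% PUT4 differed by -1.19 (adjusted p = 0.0828) and PUT2 by -0.62 (adjusted p = 0.163), and neither passed. The 3 calls were not stable, and 0 passed without M2 array 1, 2 or 3, or without nsf1∆ array 2, or without either nsf1∆ array at 20%, while 1 passed without nsf1∆ array 1 or either M2 array at 24 h. ARG3, ornithine carbamoyltransferase, was the member of the arginine and glutamate family of 25 genes that rose (difference 0.51, SE 0.12), and it lost its call without M2 array 2 or 3 or nsf1∆ array 2. BAP3, a permease for branched-chain amino acids, was at 10.32, 9.53 and 10.61 in M2 and at 11.13, 11.15 and 11.32 in nsf1∆, a rise of 1.04 (SE 0.22, adjusted p = 0.016). It was the 1 to pass in a list of 20 amino acid permeases (5.0%, near the 4.92% of all genes), with a median of -0.15. The list does not hold PUT4 or the sulfur amino acid permeases MMP1 and MUP3, all of which passed. Of the list, 4 others were lower at an unadjusted p under 0.05, 0 by the methods' t-test.

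Among the rises, several genes act in chromosome segregation and cytokinesis. MCM16, a component of the kinetochore, was at 7.92, 7.20 and 7.95 in M2 and at 9.23, 9.48 and 9.66 in nsf1∆, and CBF2, which binds the centromere, was at 8.11, 7.53 and 8.49 against 9.93, 9.32 and 9.68. The rises were 3.41-fold (adjusted p = 0.000561) and 3.03-fold (adjusted p = 0.00192), with M2 array 2 the lowest in both genes and no overlap. HOF1, which bends the membrane at the bud neck during cytokinesis, was at 6.33, 6.54 and 6.61 against 7.27, 8.27 and 8.28, 2.73-fold higher (adjusted p = 0.00308). KCC4, a protein kinase at the septins of the bud neck, was at 8.59, 7.76 and 8.60 against 9.54, 9.76 and 9.54, 2.46-fold higher (adjusted p = 0.00214). YMR030W-A, an uncharacterised gene that adjoins HOF1, rose 2.62-fold (adjusted p = 0.00305).

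Most genes of these groups did not pass. Lists of 41 kinetochore genes and 20 bud neck and cytokinesis genes were added after the values were seen, and in them 3 (7.32%) and 2 (10.0%) rose, beside 4.92% of all genes, with medians of 0.05 and 0.07. In the bud neck list 0 fell, with 1 lower at an unadjusted p under 0.05 and 0 by the methods' t-test, and 4 rose without nsf1∆ array 2. CTF3, a kinetochore partner of MCM16, rose by 0.42 (SE 0.12, adjusted p = 0.0419), and SPC25, of the outer kinetochore, was the 1 that fell, by 0.47 (SE 0.11, adjusted p = 0.0192). SPC25 lost its call without M2 array 1 or 3 or nsf1∆ array 2. DNA replication genes rose in 4 of 44 cases (9.09%, beside 4.92% of all genes). They fell in 0, with 4 lower at an unadjusted p under 0.05 and 1 by the methods' t-test. MCM5, of the replicative helicase, was at 6.45, 6.79 and 6.67 in M2 and at 8.31, 7.35 and 7.5 in nsf1∆, 2.11-fold higher (adjusted p = 0.0101), with mutant array 1 well above the others. CDC9, DNA ligase, was at 7.18, 7.14 and 6.98 against 7.83, 7.85 and 7.72, 1.62-fold higher (adjusted p = 0.00192). CDC45, a partner of the helicase, and POL32, of a DNA polymerase, rose by 0.67 and 0.40. The count of 4 was 2 without M2 array 1 or 2 and without nsf1∆ array 2 or 3. Of 31 cell cycle genes, 0 fell and 1 rose (3.23%, beside 4.92% of all genes). It was CLB1, a mitotic cyclin, by 0.69 (SE 0.15, adjusted p = 0.0175). At an unadjusted p under 0.05, 11 were higher and 1 lower, and by the methods' t-test 4 and 0. The list median was 0.24. CLB1 lost its call without M2 array 1 or 3 or nsf1∆ array 1 or 2. The count over the list was 2 without nsf1∆ array 3 or either nsf1∆ array at 20%, and 3 without nsf1∆ array 2. CLN2, a cyclin of the G1 phase, was at 4.84, 4.70 and 4.58 against 5.2, 5.16 and 5.22 (difference 0.49, adjusted p = 0.0657) and did not pass.

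Of 20 genes in a list of the cell wall mannoproteins that yeast makes without oxygen and their regulators, 5 rose (25.0%, beside 4.92% of all genes), 1 fell and 14 did not pass, with a median of 0.45. DAN1, a mannoprotein, was at 10.72, 10.29 and 10.71 in M2 and at 12.25, 11.96 and 11.92 in nsf1∆, 2.77-fold higher (adjusted p = 0.00331). TIR1 was at 10.22, 10.05 and 10.09 against 10.89, 10.77 and 10.55, 1.53-fold higher (adjusted p = 0.00561), and TIR2 was at 8.43, 8.07 and 8.57 against 9.09, 9.06 and 9.04, 1.63-fold higher (adjusted p = 0.0169). In all 3 genes every mutant array was above every M2 array. PAU7 and PAU5, seripauperins, rose by 0.83 and 0.51, though the many near-identical PAU genes may share the signal of their probe sets. TIR3 and TIR4 differed by 0.61 and 0.53 without passing (adjusted p = 0.19 and 0.181). In M2 the mean levels of TIR1 and TIR2 were 13.45 and 12.48 at 24 h, and 10.12 and 8.36 at 85%. In nsf1∆ they were 13.57 and 12.92 at 24 h, and 10.74 and 9.06 at 85%. The median strain difference of the list was already 0.38 at 24 h and 0.20 at 20%, with 0 members passing at either stage. The count of 5 was 3 without M2 array 2.

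The 1 member that fell was ROX1, the repressor of genes used without oxygen. ROX1 was at 12.46, 12.31 and 12.64 in M2 and at 12.01, 11.47 and 11.64 in nsf1∆, 1.7-fold lower (adjusted p = 0.0196), and lost this call without M2 array 1 or 3 or nsf1∆ array 2. ANB1, which is known to be under Rox1p, was at 9.53, 9.44 and 9.70 against 10.62, 10.05 and 10.00, 1.59-fold higher (adjusted p = 0.0207). UPC2, an activator of the mannoprotein genes, was at 9.15, 8.79 and 8.20 against 9.27, 9.06 and 8.31, a difference of 0.17 (SE 0.30) between overlapping groups.

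Of 56 cell wall genes, 3 rose (5.36%, near the 4.92% of all genes) and 4 fell (7.14%, beside 3.91%), with a median of 0.09. WSC4, a sensor at the plasma membrane, was at 8.17, 8.04 and 8.30 in M2 and at 9.27, 8.90 and 8.97 in nsf1∆, 1.84-fold higher (adjusted p = 0.00236), and at 20% it was higher by 1.04 (adjusted p = 0.0285). SCW10, a wall glucanase, and WSC2, a further sensor, rose by 0.68 and 0.63. FKS1, the catalytic subunit of the main glucan synthase, was at 9.36, 9.26 and 9.96 against 8.73, 8.67 and 9.21, 1.58-fold lower (adjusted p = 0.0383). CHS1, a chitin synthase, fell by 0.62, GAS2, a glucan-remodelling protein of spores, by 0.57 and KRE5, needed for glucan synthesis, by 0.38. SRL1, a mannoprotein outside the list, was at 6.85, 6.14 and 6.39 against 8.25, 7.78 and 7.43 and rose 2.56-fold (adjusted p = 0.00434). The falls were 0 without M2 array 1, M2 array 3, nsf1∆ array 2 or either M2 array at 24 h, and 1 without nsf1∆ array 1 or either nsf1∆ array at 20%. The rises were 1 without any M2 array of the 85% stage or without nsf1∆ array 1.

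In the endoplasmic reticulum, where wall and secreted proteins are glycosylated, 3 of 43 genes rose (6.98%, beside 4.92% of all genes) and 0 fell, with 2 lower at an unadjusted p under 0.05, 1 by the methods' t-test, 33 above 0 and a median of 0.14. ALG12, a mannosyltransferase of the glycan precursor, was at 6.06, 6.09 and 5.96 in M2 and at 6.72, 6.68 and 6.77 in nsf1∆, 1.61-fold higher (adjusted p = 0.0051) with a narrow spread in both strains. STT3, the catalytic subunit of oligosaccharyltransferase, rose by 0.59 (SE 0.12, adjusted p = 0.0154), and EUG1, a protein disulfide isomerase, by 0.54 (SE 0.15, adjusted p = 0.0385). The count was 1 without M2 array 2.

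The remaining large rises were in genes with little in common. DDI3, which detoxifies cyanamide, was at 7.08, 7.31 and 7.08 in M2 and at 9.58, 8.48 and 8.39 in nsf1∆, 3.16-fold higher (adjusted p = 0.00306). Its probe set is one that the array design marks as shared by several transcripts, and DDI2 is a near-identical copy. RRT8, a protein of the spore wall and lipid droplets, was at 9.76, 9.57 and 9.72 against 11.14, 11.22 and 11.22, 2.85-fold higher (adjusted p = 0.00214). TDA6, a little studied gene, was at 10.03, 9.08 and 9.97 against 11.48, 10.98 and 11.22, 2.89-fold higher (adjusted p = 0.0151). The tightest groups among these were those of RRT8, and in TDA6 M2 array 2 lay low. YML083C, YIL067C and YMR105W-A, uncharacterised genes, rose by 1.65, 1.36 and 1.30.

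The stress genes HSP12, HSP26 and CTT1 did not pass, and which promoters hold CCCCT was not examined. HSP12, a membrane stabilising protein, was at 13.96, 13.95 and 13.95 in M2 and at 13.98, 13.92 and 14.03 in nsf1∆, a difference of 0.02 (SE 0.11). HSP26, a small heat shock protein, differed by 0.03 (SE 0.22) and CTT1, cytosolic catalase, by -0.17 (SE 0.10, adjusted p = 0.322). These genes were near the top of the range of levels. Of 34 heat shock and chaperone genes, 3 fell (8.82%, beside 3.91% of all genes), with a median of -0.21 and 27 below 0. The number that rose was 0, also at an unadjusted p under 0.05 and by the methods' t-test. SSB1, a ribosome-bound chaperone, was at 10.56, 10.81 and 10.96 against 10.07, 10.13 and 10.36, 1.5-fold lower (adjusted p = 0.0143). APJ1 and SSA4, further chaperones, fell by 0.48 and 0.47. The 3 falls became 1 without M2 array 2 or 3. Of 37 genes of osmotic and late stress, 0 rose, with 0 higher at an unadjusted p under 0.05 and 2 by the methods' t-test. The median was 0.01, and 3 genes fell (8.11%, beside 3.91% of all genes). They were SMP1, a transcription factor (fall of 0.74), GRE2 (0.69) and DDR48, a DNA damage responsive protein (0.47). GRE1, a gene induced by osmotic stress, was at 12.87, 13.41 and 13.11 against 11.75, 12.74 and 12.84 (difference -0.69, SE 0.29, adjusted p = 0.157) and did not pass. The 3 falls were 0 without M2 array 1 or 3, nsf1∆ array 2, either M2 array at 24 h or either nsf1∆ array at 20%, and 1 without M2 array 2 or nsf1∆ array 1.

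Among other zinc finger regulators of stress, MSN2 was at 8.91, 8.60 and 9.36 in M2 and at 8.05, 8.25 and 8.73 in nsf1∆ (difference -0.61, SE 0.25, adjusted p = 0.138) and MSN4 at 10.76, 10.77 and 11.43 against 10.97, 11.01 and 11.68 (difference 0.23, SE 0.22). COM2, a factor of similar zinc fingers, was at 10.01, 9.36 and 9.88 against 9.94, 10.61 and 10.84 (difference 0.71, SE 0.23, adjusted p = 0.0683). The groups overlapped in all 3 genes, and apart from NSF1 none of the 16 regulators measured passed by limma, with 2 others at an unadjusted p under 0.05 and 0 by the methods' t-test.

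Sulfate assimilation, the process on which the study concentrated, rose in 12 of 33 genes (36.4%, beside 4.92% of all genes). It fell in 1 (3.03%, beside 3.91%), and the median was 0.41. SUL2, a sulfate permease, was at 9.38, 8.64 and 9.57 in M2 and at 10.54, 10.19 and 10.27 in nsf1∆, 2.2-fold higher (adjusted p = 0.00892). MMP1, the S-methylmethionine permease, MET5, of sulfite reductase, MET14, adenylylsulfate kinase, and MET17, which makes homocysteine, rose by 1.44, 1.25, 0.98 and 0.95. MET3 and MET10, of the same route, differed by 0.44 and 0.41 and did not pass (adjusted p = 0.276 and 0.129). The 1 fall was that of CBF1, which helps activate these genes, by 0.53 (SE 0.14, adjusted p = 0.0341), lost without M2 array 1 or 2, nsf1∆ array 1 or 3 or either nsf1∆ array at 20%. The count was 6 without M2 array 2 and 7 without nsf1∆ array 1.

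As both strains are MATa/α diploids, the genes that diploids repress were used to check the cell type. MFA1, an a-factor precursor of MATa cells, was at 11.59, 11.56 and 11.58 in M2 and at 11.08, 11.32 and 11.15 in nsf1∆, far above the background of 3.62 in both strains. At 24 h its mean was 6.75 in M2 and 6.77 in nsf1∆. MFA2, the other a-factor gene, had an M2 mean of 4.19 at 24 h and of 9.69 at 85%, and STE4, of the pheromone G protein, was at 8.99. MF(ALPHA)1, of MATα cells, was at 7.31, 7.24 and 6.86 in M2 and at 6.89, 7.53 and 7.17 in nsf1∆. STE2, STE3 and STE18, further receptor and G protein genes, had M2 means of 6.36, 5.03 and 6.18. RNA of genes that a MATa/α cell should hold off was therefore read in both strains at 85%, and its source was not tested.

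Between the strains, 5 of 31 haploid-specific and mating genes rose (16.1%, beside 4.92% of all genes) and 1 fell (3.23%, beside 3.91%). The median was 0.14 at 85%, and 0.15 both at 24 h and at 20%. At 85% the mean level over the list was 6.70 to 6.79 in M2 and 6.86 to 6.93 in nsf1∆. NEJ1, a regulator of DNA end joining, was at 3.29, 3.65 and 3.55 in M2, near the background, and at 4.67, 3.84 and 4.32 in nsf1∆ (difference 0.78, adjusted p = 0.0226). HO, the mating type endonuclease, FIG1, a mating protein, SAG1, α-agglutinin, and GPA1, the α subunit of the pheromone G protein, rose by 0.70, 0.63, 0.58 and 0.50. RME1, the repressor of meiosis, was at 9.66, 9.43 and 9.64 against 8.63, 9.09 and 9.14 and fell by 0.62 (SE 0.15, adjusted p = 0.0223). MFA1 and MFA2, at -0.39 and -0.52, did not pass (adjusted p = 0.156 and 0.264). The 5 rises were 0 without M2 array 1, 1 without M2 array 2, 3 without M2 array 3, 1 without nsf1∆ array 1 and 3 without nsf1∆ array 2, either M2 array at 24 h or either nsf1∆ array at 20%. Of the 54 genes of sporulation and meiosis, 3 rose (5.56%) and 3 fell (5.56%), near the 4.92% and 3.91% of all genes. DIT2, of the spore wall, was at 4.29, 3.84 and 4.18 against 4.91, 4.98 and 5.49, 2.03-fold higher (adjusted p = 0.0279), and CDA1 and CDA2, chitin deacetylases of the spore wall, rose by 0.55 and 0.46 at levels of 3.37 to 4.45, near the background. MND1, of meiotic recombination, was at 9.81, 9.63 and 9.97 against 8.68, 9.11 and 9.36 and fell by 0.75 (SE 0.19), while GAS2 and OSW2 fell by 0.57 and 0.44. SPO11 and NDT80, early and middle meiotic genes, differed by 0.28 and 0.37 without passing. The 3 rises were 0 without M2 array 2 or nsf1∆ array 3, 1 without M2 array 3, 5 without either M2 array at 20% and 6 without either nsf1∆ array at 24 h. The 3 falls were 0 without any M2 array of the 85% stage or nsf1∆ array 1, and 1 without nsf1∆ array 2 or either M2 array at 24 h. RME1 lost its call without M2 array 1 or 3 or nsf1∆ array 1.

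Whether the strain difference was particular to the late stage was tested as the difference between stages, within the same fit. Against 24 h, the strain difference at 85% was more positive in 50 probe sets (0.909%) and more negative in 60 (1.09%), and against 20% in 4 (0.0728%) and 7 (0.127%), which makes 110 (2%) and 11 (0.2%) in either direction. Among the genes that passed, PDR5 moved most on the negative side, from a strain difference of 0.44 at 24 h to -1.56 at 85%, a change of -2.0 (SE 0.37, adjusted p = 0.019). NSF1 moved by -2.83 (SE 0.71, adjusted p = 0.0634) and did not pass. YOR1 went from 0.13 to -1.65 (change -1.79, adjusted p = 0.0119) and SNQ2 from 0.19 to -1.26 (change -1.45, adjusted p = 0.0357). PDR12 and TPO4 did not pass this test, with adjusted p = 0.586 and 0.237. Of the 28 efflux genes 6 passed, all more negative at 85%, and at 20% YOR1, PDR5 and SNQ2 were in between, at -0.79, -0.49 and -0.75. CYC1, RIP1, COX6 and COX4 passed too, by -1.20, -1.02, -0.83 and -0.82, each with a strain difference above 0 at 24 h. At 20% they were already below 0, at -0.38, -0.33, -0.47 and -0.39. Against 20% none of them passed (limma adjusted p = 0.584, 0.617, 0.866 and 0.758). In SRT1, the M2 mean went from 3.81 at 24 h to 10.83 at 85%, and the strain difference went from 0.66 to -1.28.

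On the positive side, TDA6, CBF2, TOS4, GSY1 and KCC4 changed most against 24 h, by 2.17, 2.12, 2.08, 1.98 and 1.94. TOS4, a regulator expressed at the start of the cell cycle, was at 4.98, 4.57 and 5.15 in M2 and at 5.86, 6.30 and 5.75 in nsf1∆ at 85% (difference 1.07, adjusted p = 0.00465), and differed by -1.01 (adjusted p = 0.0855) at 24 h. DAN1 did not pass (change 1.24, adjusted p = 0.105), and at 20% it differed by 1.41 (adjusted p = 0.0549). Against 20%, RET2, a coatomer subunit, NSA1, a ribosome biogenesis factor, and the uncharacterised YJR098C were more positive and also passed against 24 h. RET2 was at 10.84, 10.61 and 10.84 in M2 and at 11.91, 11.58 and 11.79 in nsf1∆, 2-fold higher at 85% (adjusted p = 0.00166), and differed by 0.02 at 24 h and -0.33 at 20%. UBA3 and FMS1 were more negative against both earlier stages.

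The counts of these tests rested on single arrays of the earlier stages. Without nsf1∆ array 2 at 24 h, 6 and 5 probe sets were more positive and more negative against 24 h, without nsf1∆ array 1, 77 and 117, and without M2 array 1 or 2 at 24 h, 20 and 25 or 12 and 9. Those without an array of the 85% stage lay between 20 and 73, and were 24 and 20 without M2 array 1. Without nsf1∆ array 1 or 2 at 20%, M2 array 1 at 20% or M2 array 1 at 85%, 0 probe sets passed against 20% by limma, where 764 probe sets (13.9%) had an unadjusted p under 0.05 on all arrays.

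**Figure D4:**
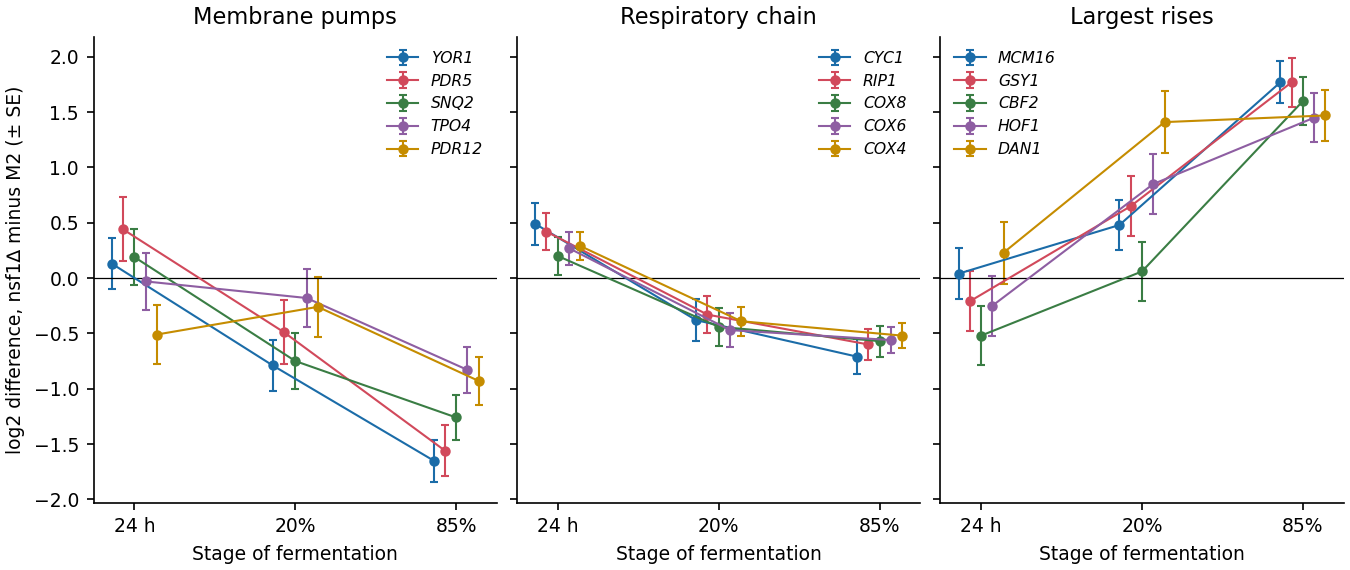
Log2 difference nsf1∆ minus M2 with its standard error from the fit (vertical axis) at 24 h, 20% and 85% (horizontal axis), for 5 membrane pumps, 5 respiratory chain genes and 5 of the largest rises. The pumps YOR1, PDR5 and SNQ2 go from 0.13, 0.44 and 0.19 at 24 h to -1.65, -1.56 and -1.26 at 85%, and DAN1 is at 1.41 at 20%.

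Across all genes the strain differences at 85% and 24 h, which share no array, had a Spearman correlation of 0.005 over 5449 genes, and those at 85% and 20% had 0.241. This is a description, since genes are not independent replicates and all stages share the fit and the 2 strains. Of the 268 genes higher at 85%, 208 were above 0 at 20% and 152 at 24 h. Of the 212 lower besides NSF1, 140 were below 0 at 20% and 76 at 24 h.

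**Figure D5:**
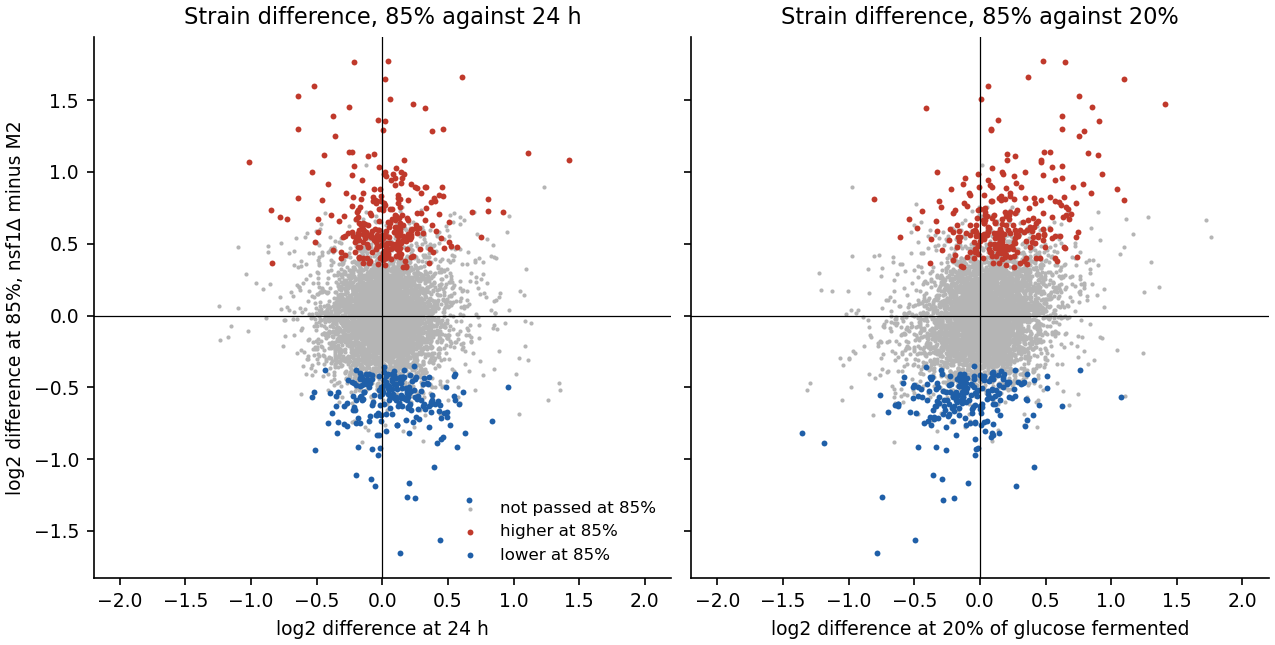
Log2 difference nsf1∆ minus M2 at 85% (vertical axis) against the same at 24 h (left) and at 20% of glucose fermented (right), one point per probe set without NSF1, coloured by the call at 85%. The Spearman correlation across genes is 0.005 on the left and 0.241 on the right.

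The called genes were spread over all 16 chromosomes. The median strain difference per chromosome lay between -0.03 (chromosome IV) and 0.02 (chromosomes VI and IX). Between 6.24% and 12.8% of the genes of a chromosome were called, with the lowest share on chromosome IV and the highest on VI. Called genes lay beside each other more often than the average gene lay beside a called one, as a description. Of 265 higher genes with a measured neighbour, 40 (15.1%) adjoined another higher gene, against 8.73% of all genes. Of 212 lower genes, 37 (17.5%) adjoined another lower gene, against 7.18%. Pairs of this kind were NSF1 and FAS2, ROX1 and UBA3, and HOF1 and YMR030W-A. Whether neighbours share transcripts or probes was not tested.

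The fit of the 6 arrays at 85% alone lowered most of the counts over lists. The falls went from 8 to 5 for drug efflux and from 5 to 3 for fatty acid and phospholipid synthesis, and to 0 for ribosome biogenesis, the arginine and glutamate family, heat shock proteins and chaperones, osmotic and late stress, the cell wall, and sporulation and meiosis. The rises went from 12 to 6 for sulfate assimilation, from 5 to 4 for the anaerobic mannoproteins, from 4 to 1 for DNA replication, from 3 to 1 for the cell wall and for the endoplasmic reticulum, and to 0 for the haploid-specific and mating genes. Without the dimmest 25% of probe sets, 0 kinetochore, bud neck, cell cycle, mating or sporulation genes rose by limma. Over all probe sets the counts were 3, 2, 1, 5 and 3 by limma. By the methods' t-test at an unadjusted p under 0.05 they were 4, 2, 4, 5 and 10. The members that rose were left out as dim and so were not tested again. Of the 116 called genes named by rule, 88 stayed in this test and 0 of these lost the call.

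Among the 116 genes named by rule that passed at 85%, 48 still passed when any 1 of the 6 arrays of this stage was left out, 11 lost the call without 1 or 2 of them, and 57 without 3 or more. Of the pumps, YOR1, PDR5 and SNQ2 were among the 48, as were SRT1, UBA3, FMS1, IML2, CKI1, ECT1 and EEB1 among the other falls. Of the rises, GSY1, MCM16, CBF2, HOF1, KCC4, MCM5, CDC9, DAN1, TIR1, PAU7, WSC4, ALG12, BAP3, RRT8 and DDI3 were among them. Of the ribosomal protein genes RPS24B and RPS29A were, and of the respiratory chain and the proline pathway no gene was.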

How the data were processed

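RNA of 14 fermentation samples was hybridised to Affymetrix Yeast Genome 2.0 arrays. The deposited table holds log2 intensities from RMA, run by the authors (background correction, quantile normalization and probe summary; version not given in the sources used here), which evens out whole-array differences. Of 10928 probe sets, 3683 with no annotated gene, 1746 of the other species and 1 with several genes were not tested, which include the 213 controls, and 47 genes had several probe sets, of which the most specific and brightest stood for the gene in lists. A single fit of 6 group means over all 14 arrays (8 residual degrees of freedom) was made in limma 3.58.1 (R 4.3.3), with Benjamini-Hochberg adjustment over 5498 S. cerevisiae probe sets and a two-sided threshold of 0.05. Stages were compared by interaction contrasts. An exact permutation of 3 against 3 arrays cannot go below p = 0.1 and was not used. The number of arrays limits the precision.

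Named genes were NSF1 and its neighbours, the 15 largest non-overlapping rises and falls that passed, up to 5 passing members each way of the lists described, defining members that did not pass, and the 5 largest of each interaction each way. The members and 52 lists were chosen with earlier results of these data known, and 3 further lists were added after the values were seen. The study's methods name an unequal-variance t-test between strains, run here as an alternative. On simulated data of the 85% comparison with 5498 probe sets, 48% of 50 genes changed by 0.5 on the log2 scale were recovered, and 96%, 98% and 100% of those changed by 1, 1.5 and 2. Same-numbered arrays of the strains did not deviate together in every pair (correlations 0.03, 0.24 and 0.57), so replicate numbers were not used as pairs. The value of 0.57, for array 3 of both strains, was the highest among all pairs of an M2 and an nsf1∆ array. Array 3 also had the highest median of its strain at 85%, 8.935 in M2 and 8.955 in nsf1∆. Whether these arrays shared a batch was not tested.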

Additional observations from a re-analysis of the deposited data

Results flagged for a closer look

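The strain difference itself differed between stages, by the interaction test in limma, in 50 probe sets that were more positive and 60 that were more negative at 85% than at 24 h, and in 4 and 7 against 20%. The values below are the strain difference at 85% minus that at the earlier stage, on the log2 scale. Each earlier stage had 2 arrays per strain, and no cause of these changes was tested.

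Among the genes lower in nsf1∆ at 85%, the change from 24 h was -2.0 for PDR5, -1.94 for SRT1, -1.79 for YOR1, -1.52 for YLL056C, -1.45 for SNQ2, -1.45 for FMS1, -1.13 for UBA3 and -0.94 for YOR289W. It was -1.20 for CYC1, -1.02 for RIP1, -0.83 for COX6 and -0.82 for COX4 of the respiratory chain. It was -1.16 for CKI1, -0.98 for SCS3, -1.14 for PEX21, -1.28 for ROX1, -0.81 for SPC25 and -1.20 for RME1.

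Among the genes higher in nsf1∆ at 85%, the change from 24 h was 2.17 for TDA6, 2.12 for CBF2, 2.08 for TOS4, 1.98 for GSY1, 1.94 for KCC4, 1.77 for YMR030W-A, 1.73 for MCM16, 1.70 for HOF1, 1.62 for YML083C, 1.45 for RRT8 and 1.39 for YIL067C. It was 1.62 for MET5 and 1.21 for MET14 of sulfate assimilation. It was 1.47 for CLB1, 1.40 for CDC45 and 1.09 for CDC9 of the cell cycle and replication. It was 0.98 for RET2, 0.92 for NSA1, 0.89 for WSC4, 0.87 for ALG12 and 0.84 for YJR098C.

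A change passed for CLN2 (1.36), BSC4 (-1.87) and HPA2 (-1.85), whose strain difference at 85% did not pass on its own. BSC4, a gene of unknown function, differed by 1.35 at 24 h, -1.32 at 20% and -0.52 at 85%, and HPA2, an acetyltransferase, by 1.26, -1.05 and -0.58.

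Against 20%, the change was -1.66 for YPR015C, a zinc finger protein, -1.64 for HTB2, a histone H2B, -1.46 for UBA3, -1.46 for FMS1 and -1.25 for ADH5, an alcohol dehydrogenase. It was 1.33 for RET2, 1.22 for FAR1, the inhibitor of the cell cycle in the pheromone response, 1.05 for NSA1 and 0.90 for YJR098C. HTB2 was 1.07 higher in nsf1∆ at 20% (adjusted p = 0.0438) and 0.57 lower at 85% (log2 difference -0.57, adjusted p = 0.043), and it lost the call at 85% without any array of that stage except nsf1∆ array 3.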

How the results depend on the processing

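The numbers of probe sets called moved with the processing. At 85%, 98 rose and 51 fell with the 6 arrays of that stage fitted alone, 170 rose without the dimmest 25% of probe sets, 181 rose and 128 fell with all probe sets tested, and 529 rose and 491 fell with array weights. By the methods' t-test 440 rose and 409 fell unadjusted and 0 and 0 after Benjamini-Hochberg, where NSF1 (-8.58) had an adjusted p of 0.238. At 2-fold or more, 30 rose and 11 fell. Leaving out 1 array gave 100 to 285 rises and 88 to 227 falls. Against 24 h, 29 were more positive without the dimmest 25%, 76 and 102 were more positive and more negative with array weights, 33 more negative at 2-fold, and 6 to 77 and 5 to 117 without 1 array, the lowest without nsf1∆ array 2 and the highest without nsf1∆ array 1 at 24 h. Against 20% they were 2 more positive without the dimmest 25%, 11 and 13 after quantile normalization, 43 and 47 with array weights, and 0 to 6 and 0 to 16 without 1 array.

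With the replicate number as a block, 281 rose and 260 fell at 85% and 4 probe sets were more negative against 20%. The pairing of numbers is not supported by the labels, and of the 486 calls 93.4% were shared with the blocked fit, 29.0% with the fit of 6 arrays alone.

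None of the 116 called genes named by rule changed sign under any setting run. These genes were chosen because they passed, so this was largely set by the choice and is no test of them. Uncalled genes near 0 did change sign. Without 1 array the difference ran from -0.264 to 0.0 for PDR1 (highest without M2 array 3), from -0.004 to 0.052 for HSP12 (lowest without nsf1∆ array 3), from -0.111 to 0.213 for MF(ALPHA)1 (-0.082 without M2 array 3, lowest without nsf1∆ array 2) and from -0.088 to 0.451 for UPC2 (lowest without M2 array 3, -0.029 without nsf1∆ array 1). Array weights gave 0.009 for TDH3 and -0.159 for UPC2, and quantile normalization -0.003 for MF(ALPHA)1. Of 1500 list counts 1097 stayed within 1.5 times. The causes were not tested, apart from the smaller number of arrays or genes that some settings use. Promoter motif shares were planned but not run, as no promoter sequences were used here. Signals near the background (3.62), such as NEJ1, CDA1 and CDA2, limit what can be read of those genes.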

Other observations

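Further gene groups held few calls at 85%, beside 4.92% of all genes higher and 3.91% lower. The genes below were named outside the rule, after their values were seen. Differences are log2, nsf1∆ minus M2, with limma's adjusted p. Of 22 regulators of glucose repression 2 fell and 0 rose (0 also at an unadjusted p under 0.05 and by the methods' t-test), with a list median of -0.21. They were HAP3, of the activator of respiration genes (-0.69, adjusted p = 0.0174), and SIP2, a subunit of the Snf1 kinase complex (-0.53, adjusted p = 0.0464). Of 19 genes of Ras and cyclic AMP signalling, IRA2, a Ras inhibitor, fell by 0.54 and PDE1, a cyclic AMP phosphodiesterase, by 0.51. In the route from ethanol and acetate, ACS1, acetyl-CoA synthetase, rose by 0.84 and ADH5, an alcohol dehydrogenase, fell by 0.63.

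Of 25 genes under nitrogen catabolite control, DAL5, the allantoate permease, rose by 0.80 (adjusted p = 0.0023) from an M2 mean level of 8.16, with a list median of -0.06. LEU9, of leucine synthesis, and SER3, of serine synthesis, rose by 0.81 and 0.73, and GSH2, glutathione synthetase, by 0.64. Of 32 iron genes, FET3, the iron uptake oxidase, rose by 0.81, while AFT2, an activator of iron genes, fell by 0.55 and ISU1, the scaffold for iron-sulfur clusters, by 0.36. Of 36 proteasome genes PUP1 and PRE8, both core subunits, rose by 0.53 and 0.50. Of the 27 ergosterol genes 0 passed by limma, with 5 higher and 2 lower at an unadjusted p under 0.05 and 0 and 1 by the methods' t-test.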
